A study of Mus musculus with 4 samples.

Results

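Sphingosine-1-phosphate (S1P) and lysophosphatidic acid (LPA) signaling in the ischemic hippocampus was examined through 10 genes. These were the S1P receptors S1pr1, S1pr2, S1pr3 and S1pr5, the LPA receptors Lpar1 and Lpar4, the sphingosine kinases Sphk1 and Sphk2, the S1P lyase Sgpl1, and Enpp2, which encodes autotaxin. They were taken by symbol from the 22609 gene symbols counted in each library, and all 10 were among the 14527 genes with enough counts to be tested. The RNA-Seq data comprise 4 libraries of mouse hippocampus, 2 labelled FLOX+GCI and 2 labelled FBN-ARO-KO+GCI. In FBN-ARO-KO mice, Cre driven by the CaMKIIα promoter deletes Cyp19a1, the aromatase gene, in excitatory neurons of the forebrain, so that Cyp19a1 is left intact in other cells, and FLOX mice are the controls. All mice in both groups were ovariectomized females, operated 1 week before global cerebral ischemia (GCI), and were given 20 min of bilateral carotid occlusion and 24 h of reperfusion. The study's methods give an age of 3 to 5 months, matched between genotypes. Neither sham libraries nor male libraries were analysed here, so the values compare genotypes after GCI and not ischemia with its absence. The series' design text says that samples were run in duplicate, and the sources used here do not say whether the libraries of a group came from separate mice, so p-values measure only the spread between these libraries, which may be technical.

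S1P and LPA are small signaling lipids that act outside the cell on G protein-coupled receptors. S1P is made inside cells when a sphingosine kinase adds phosphate to sphingosine, and it is removed by phosphatases, which recycle it, or by the lyase, which breaks it down for good; extracellular LPA is made mostly by autotaxin, a secreted enzyme that cleaves lysophosphatidylcholine. In the brain, S1PR1 is abundant on astrocytes and endothelium, S1PR3 is carried by astrocytes and vascular cells and its transcript is a known marker of reactive astrocytes, S1PR5 belongs to the oligodendrocyte lineage, LPAR1 is enriched in myelinating oligodendrocytes, and autotaxin is made by choroid plexus epithelium and oligodendrocytes.

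Promoter sequence is shown for S1pr3 and Sphk1, the members with the largest fitted differences between genotypes. Of the 10 genes, 8 had an entry in the RefSeq promoter table of build GRCm38.p6, with 15 start sites in all. The 250 bases before each start were searched on both strands for 6 motifs. The S1pr3 window lies at chr13:51408368-51408617 on the plus strand, and its only match is a GC box, in capitals, that begins 20 bases before the start. The same 250 bases occur once in NCBIM37, directly before the first base of the annotated S1pr3 gene, in no annotated exon of it.
S1pr3 promoter: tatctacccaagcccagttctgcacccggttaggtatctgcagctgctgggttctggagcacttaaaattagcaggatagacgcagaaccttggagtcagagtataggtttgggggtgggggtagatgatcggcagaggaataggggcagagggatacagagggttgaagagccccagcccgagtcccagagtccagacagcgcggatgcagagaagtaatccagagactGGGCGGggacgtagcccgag
Sphk1 has 5 start sites in the table. Only stretches of 30 bases are shown, because the matches fall inside an exon annotated as UTR in GENCODE M1. The stretch at chr11:116531057-116531086 holds a TATA box, 31 bases before the first start, in capitals. The stretch at chr11:116531783-116531812 holds an AP-1 motif and then a STAT motif, both in capitals, 50 and 41 bases before a later start.
Sphk1 TATA box: ctgaggcccaagTATAAAatgtcctgcagg
Sphk1 AP-1 and STAT: tcgcTGAGTCAccTTCTCGGAAggcactcg
Across all 32851 promoter windows of the same length, the GC box GGGCGG was present in 32.7%, TATAAA in 12.4%, the AP-1 motif TGANTCA in 6.75% and the STAT motif TTCNNNGAA in 7.02%. The GC box occurred in windows of 6 of the 8 members, TATAAA in Lpar4 and Sphk1, and the cAMP response element TGACGTCA, found in 1.55% of all windows, in S1pr2. The palindromic estrogen response element, found in 0.0639% of all windows, matched none of the 8. These matches describe letters only, and which start site the hippocampus used is not given by the counts.

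Each library held between 24333396 and 33076795 gene counts, with more in both FBN-ARO-KO+GCI libraries than in either FLOX+GCI library. A count of 0 would allow up to 0.0907 to 0.123 CPM (counts scaled to library size), from 3 counts per library. Cyp19a1, the targeted gene, had 4 and 1 counts in FLOX+GCI, against 2 and 2 in FBN-ARO-KO+GCI. These counts are too low to check the labels. Hippocampal neuron markers were present in every library, with Prox1 (dentate granule neurons) at 50.5 to 61.9 CPM and Neurod6 (pyramidal neurons) at 265 to 312 CPM. The tissue is bulk, so fewer cells of a type and less RNA per cell cannot be told apart. Neuron markers, among them Rbfox3 and Snap25, summed to 10347 to 10951 CPM, and oligodendrocyte precursor markers (Pdgfra, Cspg4) to 248 to 277. Microglia markers (Aif1, Cx3cr1) summed to 243 to 283 CPM and endothelial markers (Cldn5, Pecam1) to 173 to 287. The hemoglobin genes Hbb-b1 and Hba-a1 were at 0 in every library. Alignments that were not unique, 16276853 to 20518156 per library, were counted to no gene. The 0 counts therefore do not show that hemoglobin RNA was absent. Alas2, another erythroid marker, stood at 4.15 and 3.08 CPM in FLOX+GCI, against 1.84 and 2.29 CPM in FBN-ARO-KO+GCI. Alas2 was lower at an unadjusted p under 0.05 (edgeR quasi-likelihood test), as were 7.82% of all tested genes, but not after adjustment. Whether the tissue held blood was not tested. Across 13869 tested genes, which are not independent, the difference between genotypes was lower at higher GC content of the transcript (Spearman correlation -0.55), and so was replicate 2 minus replicate 1 within FBN-ARO-KO+GCI (correlation -0.48), while within FLOX+GCI it was 0.10. Differences of members are therefore also given after a correction for GC content and length.

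None of the 10 genes passed an adjusted p of 0.05 in the quasi-likelihood test of edgeR, adjusted over all tested genes by Benjamini-Hochberg, in which 2 genes (0.0138%) passed in all. At an unadjusted p under 0.05 the same test gave 1 member, S1pr3, which was lower in FBN-ARO-KO+GCI, where 7.82% of all tested genes were lower by this measure. DESeq2 gave an adjusted p to 4 of the 10 (S1pr1, Sphk2, Sgpl1 and Enpp2, not S1pr3) and called 0 of them, where it called 5.1% of all genes it gave one. S1pr3 was called by edgeR's likelihood ratio test (adjusted p = 0.0387), as were 2.02% of all tested genes, and by the quasi-likelihood test with the replicate number as a block (adjusted p = 0.0253), as were 1.27%. Same-numbered libraries share only a number in the labels. The FLOX+GCI and FBN-ARO-KO+GCI libraries did not overlap in 4 of the 10, namely S1pr2, S1pr3 and Sphk1, which were lower in FBN-ARO-KO+GCI, and Lpar4, which was higher. Over all tested genes the groups did not overlap in 51.8%, so 4 of 10 is no more than the background. The fitted log2 fold changes were above 0 in 5 members and below 0 in 5, with a median of 0.00 against -0.01 for all tested genes. For any one gene, exact permutation of 2 against 2 libraries can reach a two-sided p of 0.333 at the lowest.

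**Figure D1:**
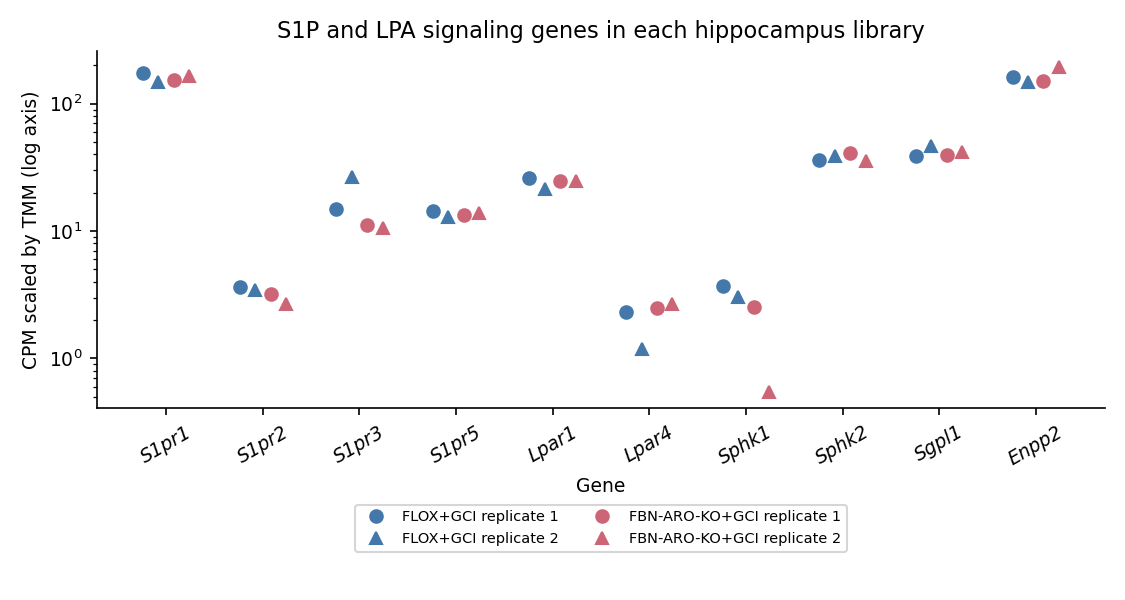
CPM scaled by TMM on a log axis for the 10 S1P and LPA genes, one point per library, with FLOX+GCI and FBN-ARO-KO+GCI replicates marked by color and shape. The clearest departures are S1pr3 in FLOX+GCI replicate 2, at 26.8 CPM against 10.6 to 14.8 CPM elsewhere, and Sphk1 in FBN-ARO-KO+GCI replicate 2, at 0.546 CPM against 2.53 to 3.71 CPM elsewhere.

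S1pr1, the Gi-coupled S1P receptor, is on chromosome 3 of mm9 (115413351 to 115417973, minus strand). It stood at 173.0 and 147.5 CPM in FLOX+GCI and at 154.3 and 166.2 CPM in FBN-ARO-KO+GCI, from 3635 to 5116 counts. The groups overlapped, with the highest and the lowest library both in FLOX+GCI. The ratio between genotypes was 1.00, with a 95% interval of 0.858 to 1.17 (adjusted p = 1.00, edgeR quasi-likelihood test), and the corrected log2 fold change was -0.035.

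S1pr3, the S1P receptor that couples to Gq and G12/13 as well as Gi, is on chromosome 13 of mm9 (51503987 to 51518166, plus strand). FLOX+GCI replicates 1 and 2 had 14.8 and 26.8 CPM (370 and 660 counts), and FBN-ARO-KO+GCI replicates 1 and 2 had 11.1 and 10.6 CPM (368 and 310 counts). Both FBN-ARO-KO+GCI libraries lay below both FLOX+GCI libraries, but the gap between the FLOX+GCI libraries was wider than the gap between the groups. The log2 fold change was -0.94 (SE 0.25, 95% interval -1.53 to -0.34, adjusted p = 0.238, edgeR quasi-likelihood test), a level 1.91-fold higher in FLOX+GCI. A fitted change of at least this size in the same direction was found in 1.57% of all tested genes. FLOX+GCI replicate 2 set the size of the difference, which was -0.45 without it (adjusted p = 0.295) and -1.30 without FLOX+GCI replicate 1 (adjusted p = 0.000495), both from the same edgeR test, which then called 1.3% of all tested genes. S1pr3 is also among the reactive astrocyte transcripts that the study displayed from these same samples, so its direction is not independent evidence.

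S1pr3 stood off the trend over GC content. Its transcript is 51.7% GC, near the 50.6% median of tested genes, the 1438 genes within 1 percentage point of it had a median log2 fold change of -0.01, and the correction left S1pr3 at -0.95 (adjusted p = 0.404, edgeR quasi-likelihood test). Within each library, S1pr3 made up 7.86% of the counts of S1pr3 and S1pr1 together in FLOX+GCI replicate 1 (95% Wilson interval 7.13 to 8.67) and 15.4% in replicate 2 (14.3 to 16.5). In FBN-ARO-KO+GCI the share was 6.71% (6.08 to 7.40) and 5.99% (5.37 to 6.67). These intervals cover counting error only. On that scale FLOX+GCI replicate 1 overlapped FBN-ARO-KO+GCI replicate 1 but not FBN-ARO-KO+GCI replicate 2. FLOX+GCI replicate 2 stood apart from all others.

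Most reactive astrocyte markers were, like S1pr3, highest in FLOX+GCI replicate 2. Gfap, the astrocyte intermediate filament, was at 396 and 900 CPM in FLOX+GCI and at 502 and 560 CPM in FBN-ARO-KO+GCI. Of the 5 markers listed, 4 were highest in FLOX+GCI replicate 2, the exception being Lcn2, a secreted acute phase protein, and the summed level of the list was 689 and 1437 CPM in FLOX+GCI against 841 and 853 CPM in FBN-ARO-KO+GCI. How many of all tested genes were highest in FLOX+GCI replicate 2 was not counted. In the remaining libraries the order of the sum differed, since S1pr3 was higher in FLOX+GCI replicate 1 than in both FBN-ARO-KO+GCI libraries and the summed markers were lower. Of the listed markers only Vim kept the S1pr3 order, at 66.5 and 72.5 CPM in FLOX+GCI and at 54.8 and 44.1 CPM in FBN-ARO-KO+GCI. Of the 5 markers, 2 were lower and 1 higher in FBN-ARO-KO+GCI at an unadjusted p under 0.05, against 7.82% and 8.72% of all tested genes, and none passed after adjustment (edgeR quasi-likelihood test). With the replicate block 1 of them, the hyaluronan receptor gene Cd44, passed and was lower (adjusted p = 0.0437, same test). General astrocyte markers, among them Aqp4 and Aldh1l1, summed to 5483 and 5069 CPM in FLOX+GCI and to 5614 and 6172 CPM in FBN-ARO-KO+GCI, so the library with the most S1pr3 had the lowest sum. The part of reactive astrocytes in the S1pr3 difference was not tested.

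**Figure D2:**
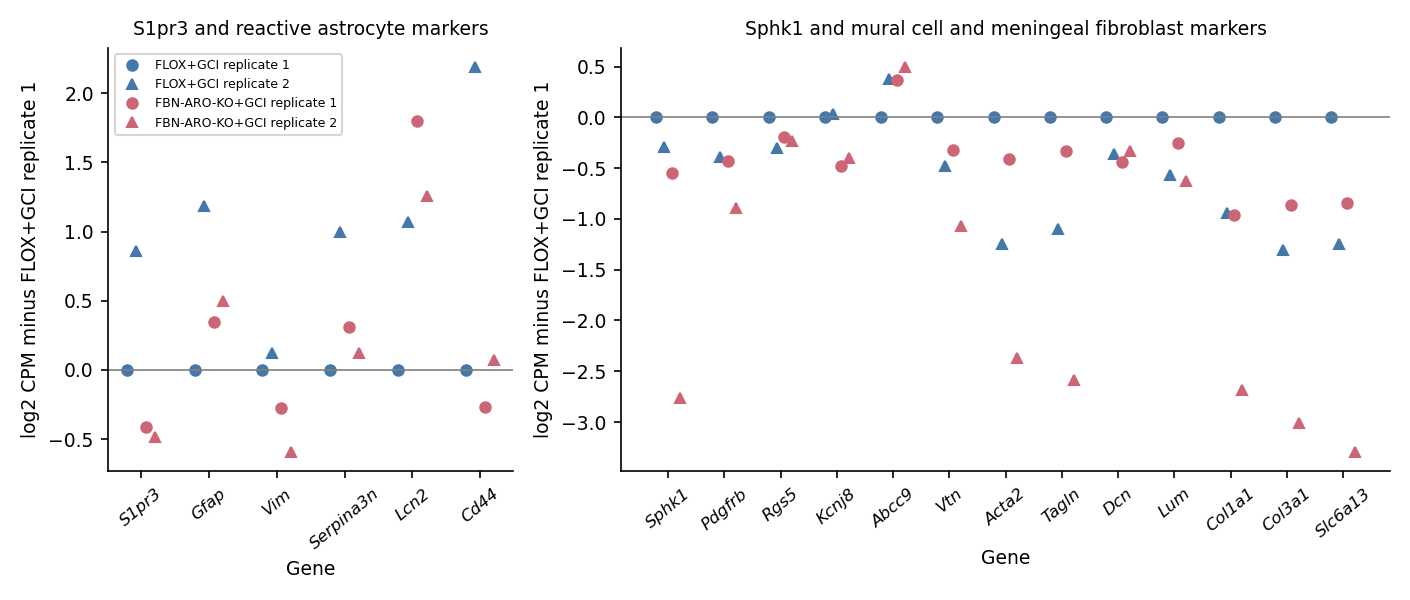
Log2 CPM of each library minus that of FLOX+GCI replicate 1, for S1pr3 beside the 5 reactive astrocyte markers (left) and for Sphk1 beside the 7 mural cell and 5 meningeal fibroblast markers (right), one point per library. S1pr3, Gfap, Vim, Serpina3n and Cd44 are highest in FLOX+GCI replicate 2, and Sphk1, like 8 of the 12 vessel wall and fibroblast markers, is lowest in FBN-ARO-KO+GCI replicate 2. The shares of all tested genes highest or lowest in these libraries were not counted.

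S1pr2, the S1P receptor that signals mainly through G12/13, is on chromosome 9 of mm9 (20770396 to 20781237, minus strand). It was at 3.63 and 3.45 CPM in FLOX+GCI and at 3.23 and 2.66 CPM in FBN-ARO-KO+GCI, from 78 to 107 counts. The groups did not overlap, yet the step between them was smaller than the distance between the FBN-ARO-KO+GCI libraries. Between genotypes it differed by a log2 fold change of -0.26 (SE 0.22, adjusted p = 0.548, edgeR quasi-likelihood test) and -0.17 after the GC and length correction. The transcript is 55.4% GC, and genes within 1 percentage point of that had a median log2 fold change of -0.10.

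S1pr5, the S1P receptor of the oligodendrocyte lineage, is also on chromosome 9 of mm9 (21047356 to 21052887, minus strand). Its libraries were at 14.4 and 12.8 CPM in FLOX+GCI and at 13.3 and 13.9 CPM in FBN-ARO-KO+GCI. The groups overlapped, the ratio was 1.00, and its 95% interval ran from 0.814 to 1.23 (adjusted p = 0.996, edgeR quasi-likelihood test). After the GC and length correction the log2 fold change was 0.15, with a 95% interval of -0.16 to 0.46 (adjusted p = 0.707, same test); the transcript is 57.1% GC. Oligodendrocyte markers, read from 7 genes that include Mbp, a major myelin protein gene, summed to 2882 and 3377 CPM in FLOX+GCI and to 3408 and 3283 CPM in FBN-ARO-KO+GCI. Of these 7, 6 had a value above 0, with a median log2 fold change of 0.09, and 3 were higher at an unadjusted p under 0.05 (8.72% of all tested genes), while 0 passed after adjustment. FBN-ARO-KO+GCI replicate 2 was the highest library for 4 of the 7, and the share of all tested genes highest in it was not counted. The part of oligodendrocytes in the S1pr5, Lpar1 and Enpp2 values was not tested.

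The S1P receptors were unequal in level. Per kilobase of the longest annotated coding transcript, S1pr1 made up 84.7% and 79.8% of the 4 S1P receptor genes together in FLOX+GCI, against 85.1% and 86.1% in FBN-ARO-KO+GCI. The S1pr3 share was 4.88% and 9.79% in FLOX+GCI, against 4.13% and 3.70% in FBN-ARO-KO+GCI. S1pr5 held between 8.38% and 8.90% in every library, and S1pr2 between 1.48% and 2.01%. In FLOX+GCI replicate 2 alone, S1pr3 exceeded S1pr5 per kilobase, at 5.97 against 5.11 CPM per kilobase.

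Lpar1, the main LPA receptor of myelinating cells, is on chromosome 4 of mm9 (58448127 to 58566770, minus strand), where a predicted miRNA and the pseudogene Gm12577 overlap it. It was at 26.1 and 21.2 CPM in FLOX+GCI and at 24.5 and 24.5 CPM in FBN-ARO-KO+GCI, from 523 to 812 counts. Both FBN-ARO-KO+GCI libraries lay between the FLOX+GCI libraries. A log2 fold change of 0.05 was fitted (SE 0.12, 95% interval -0.24 to 0.34, adjusted p = 0.851, edgeR quasi-likelihood test), and it changed sign to -0.04 after the GC and length correction.

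Lpar4, an LPA receptor more distant in sequence from Lpar1 and known from vascular development, is on chromosome X of mm9 (104115964 to 104129239, plus strand). It was the least abundant member per kilobase, with 58 and 29 counts in FLOX+GCI, against 82 and 78 in FBN-ARO-KO+GCI, or 2.31 and 1.18 CPM against 2.47 and 2.66 CPM. FLOX+GCI replicate 2 was low and the other libraries were close to each other. The log2 fold change of 0.55 had a 95% interval of -0.25 to 1.36 (adjusted p = 0.428, edgeR quasi-likelihood test), and without FLOX+GCI replicate 2 it was 0.15, against 1.12 without FLOX+GCI replicate 1 (adjusted p = 0.155, same test). With 33.7% GC, Lpar4 was the member lowest in GC, and the 13 tested genes within 1 percentage point of it had a median log2 fold change of 0.30. After the GC and length correction Lpar4 was at 0.19.

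Sphk1, the sphingosine kinase that growth factors and inflammatory signals induce, is on chromosome 11 of mm9 (116392239 to 116397988, plus strand). It had 93 and 75 counts in FLOX+GCI, against 84 and 16 in FBN-ARO-KO+GCI, or 3.71 and 3.04 CPM against 2.53 and 0.546 CPM. FBN-ARO-KO+GCI replicate 2 was far below the other 3 libraries, and the groups did not overlap. The log2 fold change was -1.11, the lowest of the 10, with a wide 95% interval of -2.43 to 0.20 (SE 0.56, adjusted p = 0.356, edgeR quasi-likelihood test). It was -0.41 without FBN-ARO-KO+GCI replicate 2 and -2.62 without FBN-ARO-KO+GCI replicate 1. Sphk1 is the member richest in GC, at 61.5%, and the 368 tested genes within 1 percentage point of that had a median log2 fold change of -0.23, while the correction left Sphk1 at -0.91.

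Most vessel wall and meningeal fibroblast markers, but not all, were lowest in the library in which Sphk1 was lowest. The 7 mural cell markers, among them Pdgfrb and Rgs5, summed to 284 and 190 CPM in FLOX+GCI and to 227 and 132 CPM in FBN-ARO-KO+GCI. The 5 meningeal fibroblast markers, among them the matrix genes Dcn and Lum, summed to 147.5 and 98.7 CPM in FLOX+GCI and to 100.3 and 84.7 CPM in FBN-ARO-KO+GCI. FBN-ARO-KO+GCI replicate 2 was the lowest library for 4 of 7 mural, 4 of 5 fibroblast and 8 of 8 endothelial markers, and FLOX+GCI replicate 1 the highest for 5 of 7, 5 of 5 and 7 of 8. The shares of all tested genes lowest or highest in these libraries were not counted. The fibroblast sum was mostly Dcn, at 68.7 to 93.1 CPM. In FBN-ARO-KO+GCI replicate 2, log2 CPM relative to FLOX+GCI replicate 1 was -2.76 for Sphk1, -2.69 for the collagen gene Col1a1, -3.01 for the collagen gene Col3a1 and -3.30 for the transporter gene Slc6a13. Other markers were less far from FLOX+GCI replicate 1, with Lum at -0.63, Kcnj8 at -0.40, Dcn at -0.33 and Rgs5 at -0.23. Abcc9, at 0.50, was highest in FBN-ARO-KO+GCI replicate 2. The remaining mural cell markers lay between -2.59 and -0.89. No defining marker of these types was at 0. Across tested genes, replicate 2 minus replicate 1 within FBN-ARO-KO+GCI fell with GC content (Spearman correlation -0.48). The transcripts of Col1a1, Slc6a13 and Col3a1 are 58.9%, 54.7% and 52.5% GC. Those of Kcnj8, Abcc9, Dcn, Lum and Rgs5 are 52.1%, 46.2%, 42.4%, 42.0% and 41.1% GC. The part of GC content in these marker values was not tested. The part of vessel and meningeal tissue in the Sphk1 values was not tested either.

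Sphk2, the kinase that is found in the nucleus and mitochondria as well as the cytosol, is on chromosome 7 of mm9 (52964837 to 52973372, minus strand). It was at 36.2 and 38.7 CPM in FLOX+GCI and at 40.8 and 35.7 CPM in FBN-ARO-KO+GCI, where the groups overlapped. Its log2 fold change was 0.03 (SE 0.10, adjusted p = 0.897, edgeR quasi-likelihood test) and 0.19 after the GC and length correction (adjusted p = 0.483, same test). Its exons overlap those of Dbp, a clock-controlled transcription factor gene, and Rpl18, a ribosomal protein gene, both on the plus strand. Whether reads were counted by strand is not given in the sources used here, so reads of Sphk2 and these neighbors may not be told apart. Dbp was at 74.9 and 53.8 CPM in FLOX+GCI and at 36.0 and 41.2 CPM in FBN-ARO-KO+GCI, an order that Sphk2 did not share. Rpl18 was at 19.0 and 22.1 CPM in FLOX+GCI and at 19.7 and 17.4 CPM in FBN-ARO-KO+GCI. Like Sphk2, it was lowest in FBN-ARO-KO+GCI replicate 2. The part of either neighbor in the Sphk2 counts was not tested.

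Within each library, Sphk1 made up 9.31% of the Sphk1 and Sphk2 counts in FLOX+GCI replicate 1 (95% Wilson interval 7.66 to 11.3) and 7.28% in replicate 2 (5.85 to 9.03). In FBN-ARO-KO+GCI the share was 5.85% (4.75 to 7.19) in replicate 1 and 1.51% (0.929 to 2.43) in replicate 2. The share in FBN-ARO-KO+GCI replicate 2 was below the intervals of the other 3 libraries, whose neighboring intervals overlapped. Sphk2 was the major kinase transcript in every library, with 88.0% to 98.0% of the kinase level per kilobase.

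**Figure D3:**
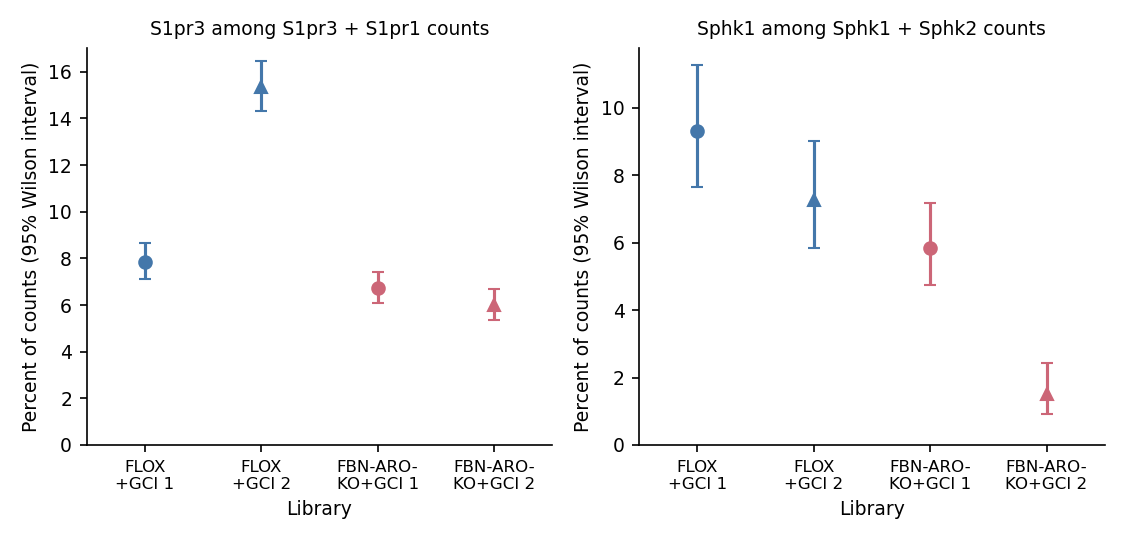
Share of one gene's counts in the sum of a pair, in percent with 95% Wilson intervals, in each of the 4 libraries. S1pr3 reaches 15.4% of S1pr3 and S1pr1 in FLOX+GCI replicate 2 and 5.99% to 7.86% elsewhere, and Sphk1 makes up 1.51% of the sphingosine kinase counts in FBN-ARO-KO+GCI replicate 2 and 5.85% to 9.31% elsewhere.

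Sgpl1, which encodes the lyase that degrades S1P irreversibly in the endoplasmic reticulum, is on chromosome 10 of mm9 (60561390 to 60610451, minus strand). It was at 39.1 and 46.8 CPM in FLOX+GCI and at 39.3 and 41.6 CPM in FBN-ARO-KO+GCI. The FBN-ARO-KO+GCI libraries lay inside the FLOX+GCI range. On the log2 scale the difference was -0.09 (SE 0.11, 95% interval -0.34 to 0.17, adjusted p = 0.701, edgeR quasi-likelihood test), and -0.15 after the GC and length correction. The lyase and the kinase Sphk2 were near parity in counts not scaled by length, with Sgpl1 at 52.0% and 54.7% of their sum in FLOX+GCI and at 49.1% and 53.8% in FBN-ARO-KO+GCI.

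Enpp2, the gene of autotaxin, is on chromosome 15 of mm9 (54670453 to 54751701, minus strand). It was at 160.9 and 149.1 CPM in FLOX+GCI and at 151.4 and 194.2 CPM in FBN-ARO-KO+GCI. One FBN-ARO-KO+GCI library was above the others, and the groups overlapped. The fitted log2 fold change was 0.16 (SE 0.12, 95% interval -0.12 to 0.44, adjusted p = 0.514, edgeR quasi-likelihood test), and 0.04 after the GC and length correction. It was 0.32 without FBN-ARO-KO+GCI replicate 1 and -0.03 without FBN-ARO-KO+GCI replicate 2.

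Choroid plexus, a strong source of autotaxin transcript that can be carried along in a hippocampal dissection, was followed through 10 markers. Ttr, the transthyretin gene that defines this epithelium, was at 26.5 and 21.9 CPM in FLOX+GCI and at 8.93 and 15.6 CPM in FBN-ARO-KO+GCI. Enpp2 counts exceeded Ttr counts in every library, at 85.9% and 87.2% of their sum in FLOX+GCI, against 94.4% and 92.5% in FBN-ARO-KO+GCI. Folr1, the folate receptor of the same epithelium, was between 0.362 and 0.717 CPM in every library. The 10 markers, Ttr included, summed to 70.6 and 58.9 CPM in FLOX+GCI and to 49.3 and 56.9 CPM in FBN-ARO-KO+GCI. Of the 6 tested, 4 had a value above 0 and 2 below, with a median log2 fold change of 0.05. At an unadjusted p under 0.05 (edgeR quasi-likelihood test) 2 were lower, against 7.82% of all tested genes. The part of choroid plexus in the Enpp2 values was not tested.

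**Figure D4:**
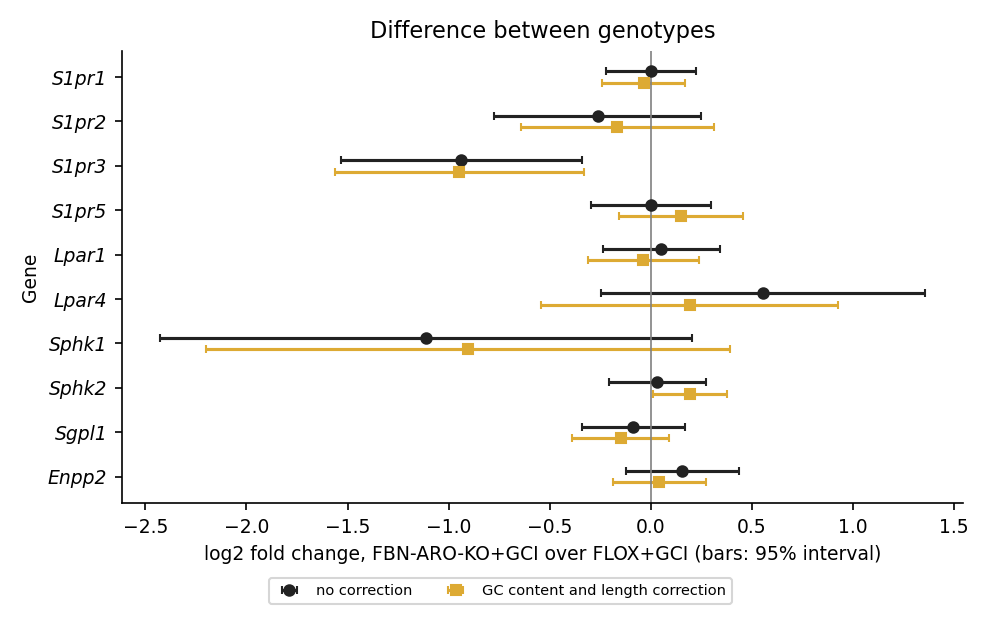
Log2 fold change of FBN-ARO-KO+GCI over FLOX+GCI for the 10 genes with 95% intervals, from edgeR's quasi-likelihood fit without correction (black circles) and with a correction for GC content and length (yellow squares). The S1pr3 interval lies below 0 in both fits, at -0.94 and -0.95, the Sphk1 interval is the widest, and the corrected Sphk2 interval lies just above 0 at 0.19, none with an adjusted p under 0.05.

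Members were ranked by level per kilobase of transcript, whereas the shares of gene pairs above are of counts not scaled by length. As the mean of the 4 libraries, S1pr1 was at 52.9 CPM per kilobase and Enpp2 at 48.2 CPM per kilobase, and their ranges overlapped. Sphk2 at 10.7 and Sgpl1 at 9.56 CPM per kilobase followed, again with overlapping ranges, and neither overlapped Enpp2. Lpar1 at 6.80, S1pr5 at 5.44 and S1pr3 at 3.53 CPM per kilobase came next, where Lpar1 overlapped neither neighbor in this order and S1pr5 and S1pr3 overlapped. S1pr2 at 1.15, Sphk1 at 0.925 and Lpar4 at 0.509 CPM per kilobase were lowest, and Sphk1 overlapped both of the others. Every S1pr2 value lay under every S1pr3 value.

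**Figure D5:**
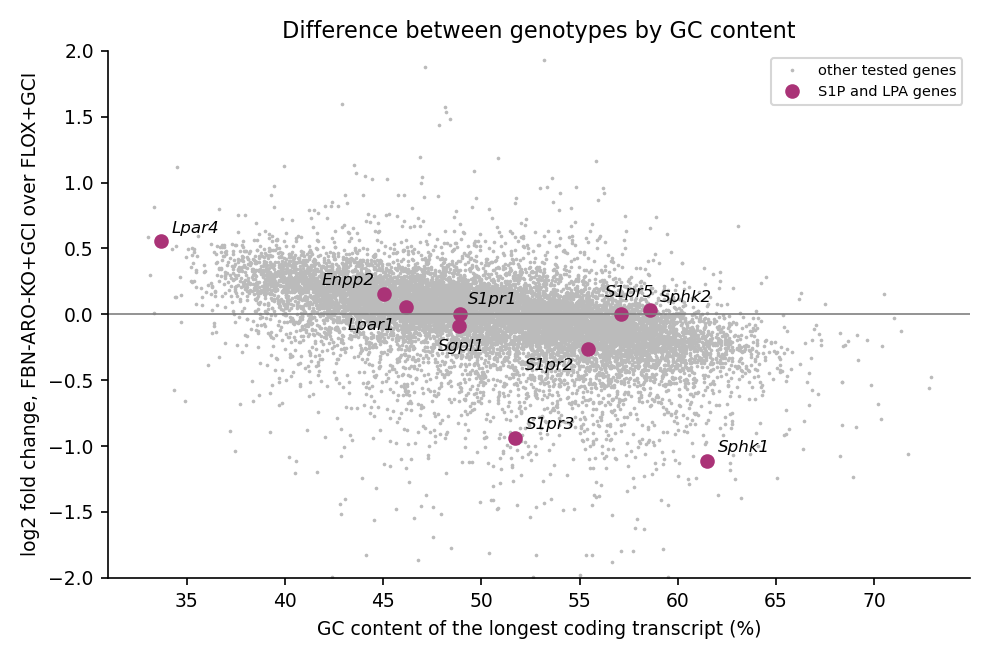
Log2 fold change of FBN-ARO-KO+GCI over FLOX+GCI against the GC content of the longest coding transcript in percent, for the 10 members (large points, named) and the other tested genes (gray); 13 of 13869 genes lie beyond the axis limits of 2 either way. S1pr3 at 51.7% GC lies below the genes of like GC content, and Lpar4 at 33.7% GC is the member farthest to the low GC end.

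The wider pathway was read from 80 other genes in 5 lists, of which 78 were found in the files and 71 were tested. In edgeR's quasi-likelihood test 0 of the 71 passed after adjustment, and at an unadjusted p under 0.05 there were 7 higher in FBN-ARO-KO+GCI and 2 lower, where 8.72% of all tested genes were higher and 7.82% lower. DESeq2 called 2, Gnai1 and Rock2, both higher, where it called 5.1% of all genes it gave an adjusted p. The likelihood ratio test called 1, Cyr61, lower, where it called 2.02% of all tested genes. The median log2 fold change of the 71 was -0.01, as for all tested genes.

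Among the 5 other receptors, 4 were tested and none had an unadjusted p under 0.05 in the edgeR test. S1pr4, a receptor of leukocytes, had 13 and 19 counts in FLOX+GCI, against 23 and 9 in FBN-ARO-KO+GCI. Lpar6 was at 4.39 ± 0.16 CPM (SD, n = 2) in the FLOX+GCI libraries and 4.04 ± 0.17 CPM (SD, n = 2) in those of FBN-ARO-KO+GCI. On the log2 scale Lpar6 was at -0.12, and at -0.36 after the GC and length correction. Lpar6 overlaps Rb1 on the opposite strand. Lpar2 had between 21 and 37 counts in each library.

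Among the genes of S1P and ceramide turnover, 28 of 32 were tested. At an unadjusted p under 0.05, 3 were higher in FBN-ARO-KO+GCI and 0 lower, against 8.72% and 7.82% of all tested genes. Sgpp1, the S1P phosphatase that returns S1P to sphingosine, had 1086 and 854 counts in FLOX+GCI, against 1527 and 1851 in FBN-ARO-KO+GCI, with a log2 fold change of 0.49 (SE 0.17, adjusted p = 0.251, edgeR quasi-likelihood test). Cers6, a ceramide synthase, and Acer3, an alkaline ceramidase, were at 0.27 and 0.36 on the same log2 scale. The groups did not overlap in 15 of the 28, near the 51.8% of all tested genes. After the GC and length correction the values were 0.39 for Sgpp1, 0.11 for Cers6 and 0.07 for Acer3, the last at 37.7% GC. Spns2, the S1P exporter, was at 0.19 before and 0.35 after the correction (adjusted p = 0.362, edgeR quasi-likelihood test), from 100.8 and 111.2 CPM in FLOX+GCI and 125.2 and 117.0 CPM in FBN-ARO-KO+GCI. Exons of Spns2 overlap those of Mybbp1a on the opposite strand, so reads of these genes may not be told apart.

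Of the genes of LPA turnover and lipid phosphate phosphatases, 12 of 15 were tested and 1 was higher at an unadjusted p under 0.05 (8.72% of all tested genes). This was Plppr4, a phosphatase-related membrane protein of neurons at glutamatergic synapses, at 432 ± 12.1 CPM (SD, n = 2) in the FLOX+GCI libraries and 498 ± 42.8 CPM (SD, n = 2) in those of FBN-ARO-KO+GCI. Gdpd1, a lysophospholipase D, and Agk, an acylglycerol kinase of mitochondria, were at log2 fold changes of 0.20 and 0.22. After the GC and length correction Plppr4 was at 0.06, Gdpd1 at 0.098 and Agk at 0.19.

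Of the 16 genes for G proteins and the steps they couple to, 3 were higher in FBN-ARO-KO+GCI and 1 lower at an unadjusted p under 0.05, against 8.72% and 7.82% of all tested genes. Gnai1, a Gi subunit through which S1PR1 signals, was at 182 ± 22.2 CPM (SD, n = 2) in the FLOX+GCI libraries and 251 ± 49.8 CPM (SD, n = 2) in those of FBN-ARO-KO+GCI, which is 0.46 on the log2 scale (adjusted p = 0.245, edgeR quasi-likelihood test; 0.0166, DESeq2). Rock2, a kinase that acts on the actomyosin cytoskeleton, and Gnaq, the Gq subunit, were at 0.30 and 0.24. After the GC and length correction Gnai1 was at 0.31, Rock2 at 0.06 and Gnaq at 0.12.

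The 12 SRF and YAP target genes had the largest median difference of the 5 lists. Of the 11 tested, 8 had a value below 0 and the median log2 fold change was -0.42, while 51.3% of all tested genes were below 0. Only Cyr61, a matricellular protein gene, was lower at an unadjusted p under 0.05, against 7.82% of all tested genes. Cyr61 had 211 and 182 counts in FLOX+GCI, against 106 and 74 in FBN-ARO-KO+GCI, and the groups did not overlap. Its log2 fold change was -1.46 (SE 0.20, adjusted p = 0.174, edgeR quasi-likelihood test), and the likelihood ratio test gave an adjusted p of 5.71e-06. The GC and length correction left it at -1.41.

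The other named targets were not apart in the same way. Flna, a filamin, was at -0.42 on the log2 scale, Myl9, a smooth muscle myosin light chain, at -0.74, and Acta2, smooth muscle actin, at -0.58. The corrected values were -0.41, -0.58 and -0.58. Acta2 had 1488 and 618 counts in FLOX+GCI, against 1481 and 337 in FBN-ARO-KO+GCI, so that the replicates of a group differed more than the groups. Myl9 had 757 and 367 counts in FLOX+GCI, against 601 and 256 in FBN-ARO-KO+GCI, again with overlap. Acta2 and another member of this list, Tagln, also belong to the mural cell markers, whose sum was lowest in FBN-ARO-KO+GCI replicate 2, and the part of vessel wall cells in these values was not tested.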

How the data were processed

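Hippocampal total RNA was sequenced as 50 nt single-end reads. Per the submitters' processing notes, the authors used bcl2fastq, aligned to mm9 with TopHat2 2.0.8b, and counted reads with HTSeq; the annotation release and strand setting are not given in the sources used here. The authors deposited raw counts per gene symbol, without normalization, for 4 libraries. Each file ends with 5 counters of unassigned reads, which were left out; reads in no feature were 12.3% to 13.7% and ambiguous reads 0.411% to 0.446% of assigned, no-feature and ambiguous reads together.

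Groups and replicate numbers came from the sample titles. Genotypes were compared in all 4 libraries with edgeR 4.0.16 in R 4.3.3: TMM normalization, filterByExpr with a minimum count of 10, the quasi-likelihood test, and Benjamini-Hochberg adjustment over all 14527 tested genes at 0.05. The SE of a log2 fold change was its size divided by the square root of F. CPM values are scaled by TMM. Shares have 95% Wilson intervals (scipy 1.17.1). Intervals and the floor of 3 counts cover counting error only. Replicates of a group differed by more than counting noise (chi-square per degree of freedom 10.5 and 12.3), so each was counted as 1 replicate; this does not show that they came from separate mice.

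Loci, transcript length and GC content came from GENCODE M1 on NCBIM37, the build of mm9, where 21430 of 22609 symbols had a single locus and 20063 had length and GC content. Older symbols were matched through RefSeq synonyms; Plppr2 and Plppr3 were not matched. Promoters are from RefSeq (GRCm38.p6).

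The members, gene lists, marker lists and tests were chosen with earlier results of these data known. Named genes are the 10 members, Cyp19a1, the 3 genes of each pathway list with the smallest unadjusted p, every pathway list gene with an adjusted p under 0.05 with or without the replicate block, and the first 2 markers of each marker list. Dbp, Rpl18, Rb1, Gm12577, Spns2, Serpina3n, Lcn2, Cd44, Kcnj8, Abcc9, Col1a1, Col3a1, Slc6a13, Tagln and Alas2 were named after their values were seen. Mybbp1a was named for its overlap with Spns2. One oligodendrocyte marker is not reported here.

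Alternatives were DESeq2 1.42.0, the likelihood ratio test, DESeq-style size factors, library totals, a filter keeping genes with 1 count or more, a filter keeping a mean of 50 or more, the replicate number as a block, a correction for GC content and length (natural splines with 5 degrees of freedom per library, entered as an offset), the block with that correction, and each library left out in turn. The procedure was tested on simulated data.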

Additional observations from a re-analysis of the deposited data

How the results depend on the processing

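The 4 libraries limit precision more than depth does, since replicates differed beyond counting noise, and intervals of low members such as Sphk1 and Lpar4 allow changes of 2-fold or more. Leaving out a library leaves 1 sample in a group, which is then assumed to vary like the other group.

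Against 2 genes called in all (2403 at an unadjusted p under 0.05), edgeR called 5 when every gene with at least 1 count was tested, 294 by the likelihood ratio test, and 0 to 193 with one library left out. It called 193 without FLOX+GCI replicate 1, 127 without FLOX+GCI replicate 2, and 0 without FBN-ARO-KO+GCI replicate 1 or replicate 2 (2772 and 831 at an unadjusted p under 0.05). DESeq2 called 292. Among the 10 members, 1 was called by the likelihood ratio test and 0 to 1 with one library left out, in each case S1pr3. Among the pathway genes, DESeq2 called 2, the likelihood ratio test 1, and 0 to 2 were called with one library left out: Cyr61 without FLOX+GCI replicate 1 (adjusted p = 0.0146, edgeR quasi-likelihood test), and Cyr61 and Myl9 without FLOX+GCI replicate 2. The cause of these shifts was not tested, apart from the change in samples and genes entered.

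Same-numbered libraries share only a number, and their deviations from the group means correlated at 0.129 across genes. With that number as a replicate block, edgeR called 184 genes (1.27%), 142 lower and 42 higher, including 1 member, S1pr3 (log2 fold change -0.88, adjusted p = 0.0253, edgeR quasi-likelihood test), and 3 pathway genes, Cyr61, Myl9 and Acta2, all lower. With the block and the correction for GC content and length together, 2 genes and 0 members were called, and S1pr3 was at -0.89 (adjusted p = 0.267, same test). DESeq2 fitted S1pr3 at -0.93 (unadjusted p = 0.000172, DESeq2), where 1859 of its 17821 genes had an unadjusted p under 0.05. It gave an adjusted p to 5728 genes and not to S1pr3, so S1pr3 was not judged after adjustment there.

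Members close to 0 changed sign. S1pr1 was 0.0028 with every gene, 0.0040 with DESeq2, 0.0034 with the block, and -0.11 to 0.12 with one library left out. S1pr5 was -0.034 with library totals, -0.0037 at a mean of at least 50 counts, 0.15 with the GC and length correction, alone or with the block, and -0.085 to 0.093 with one library left out. Lpar1 was -0.038 with the GC and length correction, -0.033 with that and the block, and -0.091 to 0.21 with one library left out. Sphk2 was -0.0034 with library totals and -0.071 to 0.12 with one library left out, Sgpl1 -0.21 to 0.044 and Enpp2 -0.033 to 0.32. S1pr2, S1pr3 and Sphk1 were below 0, and Lpar4 above 0, under all 13 alternatives. These are the 4 members whose groups did not overlap, as in 51.8% of all tested genes. Leaving out a library could therefore hardly change their sign, and the kept sign is no further support. The share of all tested genes that kept their sign was not counted.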
